A study of Mus musculus with 14 samples.

Results

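The cytosolic ribosomal protein genes are the genes for the protein parts of the ribosome that translates nuclear-encoded mRNAs. They were taken by gene name, as every gene named Rpl or Rps followed by a number and at most the letters a, l or x, together with Rplp0, Rplp1, Rplp2 and Rpsa. Names that contain -ps, which mark pseudogenes, were left out. This gave 84 genes of the 55450 in the table, 52 for the large 60S subunit and 32 for the small 40S subunit. The name alone chose them, with no expression value used, and all 84 passed the filter for testing (FPKM of at least 0.5 in at least 3 libraries), as did 18059 genes in all.

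Poly(A) RNA was sequenced from the hippocampus of female C57BL/6J mice aged 10 weeks, to compare the loss of the estrogen receptor GPR30 (gene Gper1) in all cells, in astrocytes and in neurons. Δ3102 mice (n = 3) carry a global GPR30 knockout made with CRISPR/Cas9. AG-KO mice (n = 4) are GPR30 fl/fl animals with Cre driven by GFAP, an astrocyte marker, and NG-KO mice (n = 4) are GPR30 fl/fl animals with Cre driven by neuron-specific enolase. WT mice (n = 3) were the only controls analysed here, so that the floxed allele, the Cre transgene and the deletion cannot be told apart in the AG-KO and NG-KO comparisons, and the 3 comparisons with WT share the same control libraries. The labels do not say how many animals gave each library, so p-values measure the spread between these libraries.

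Each ribosome holds 1 copy of nearly every ribosomal protein, so cells make these proteins in nearly equal amounts. Their mRNAs are short and abundant, and most begin with a 5′ terminal oligopyrimidine tract, a run of C and T bases at the transcription start. This tract lets the mTORC1 pathway, through the RNA-binding protein LARP1, switch the translation of the whole group on and off. In the brain, ribosomal protein mRNAs also travel into neuronal and astrocytic processes, where they take part in local translation.

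Library totals ran from 44527024 to 62669865 counts. Gper1 had 12, 23 and 2 counts in the Δ3102 libraries, 77, 192, 114 and 195 in AG-KO, 178, 222, 141 and 154 in NG-KO, and 132, 207 and 490 in WT, so the global knockout was below every other library and both conditional knockouts overlapped WT. All 5 neuron markers and all 5 astrocyte markers searched were detected in every group. AG-KO libraries 3 and 4 stood apart from the other 12 in the ribosomal protein genes, and fold changes and counts of genes in the AG-KO comparisons are followed by their values without these 2 libraries. In these 2 libraries the mRNAs encoded by mitochondrial DNA took 6.74% and 7.17% of the counts, against 3.69% to 5.87% in the other 12. They were also the only libraries with no count of Alb, the serum albumin of liver, where the other 12 had 141 to 26941 counts, and with the muscle creatine kinase Ckm at the value for no signal. The 5 hepatocyte markers searched summed to 5.29 to 422 FPKM in Δ3102, 1.12 to 118 in AG-KO, 6.69 to 137 in NG-KO and 334 to 405 in WT, with AG-KO libraries 3 and 4 the lowest of the 14. The 5 choroid plexus markers summed to 18.4 to 1429 FPKM in Δ3102, 17.9 to 241 in AG-KO, 4.67 to 44.9 in NG-KO and 75.5 to 119.6 in WT, with Ttr alone at 1405 FPKM in Δ3102 library 1. The part of RNA from these tissues in the ribosomal protein values was not tested.

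A pyrimidine run was more frequent at the transcription starts of the ribosomal protein genes than at those of other genes. RefSeq promoters of the mouse assembly GRCm38.p6 were found for 62 of the 84 genes. A run of at least 8 C or T bases lay within 15 bases on either side of a start in 27 of the 62 (43.5%), against 15.1% of the tested genes with a promoter and 13.9% of all genes with one. The letters CTTCCG, the core recognised by ETS-family factors, lay on either strand of the 300 bases around a start in 42 of the 62 (67.7%), against 31.6% of tested genes and 18.8% of all genes; both counts are matches of letters. The windows below belong to genes on which the expression results turn. Each runs 5′ to 3′ over 30 bases with the annotated start at the 16th base, and capitals mark the longest run of C and T. Rpl38, Rps27 and the first of the Rps24 starts (the other one has a longest run of 4 bases) show a run across the start, Rpl4 shows one that ends before it, and Rplp0, Rpl23 and the male germ line gene Rpl10l show only short runs.
Rpl38, chr11:114668565-114668594, plus strand: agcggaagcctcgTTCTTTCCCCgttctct
Rps27, chr3:90213634-90213663, minus strand: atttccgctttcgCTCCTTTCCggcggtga
Rps24, chr14:24490663-24490692, plus strand: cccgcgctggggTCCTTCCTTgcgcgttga
Rpl4, chr9:64173372-64173401, plus strand: TTCCTTTTCCTgtgggagcagccgggtaga
Rplp0, chr5:115559452-115559481, plus strand: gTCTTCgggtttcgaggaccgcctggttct
Rpl23, chr11:97782425-97782454, minus strand: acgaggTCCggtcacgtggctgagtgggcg
Rpl10l, chr12:66284387-66284416, minus strand: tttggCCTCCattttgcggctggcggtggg

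The ribosomal protein genes were abundant in every library. Their mean FPKM (fragment counts scaled to exon length and library size) over the 14 libraries had a median of 67.9 over the 84 genes, 28 genes averaged at least 100, and 77 were at 10 or more in every library. The highest was Rplp1 (chr9:61913284-61914542, minus strand, GRCm38), a protein of the acidic stalk that recruits elongation factors. Its FPKM was 749, 771 and 773 in Δ3102, 802, 720.4, 482 and 492 in AG-KO, 796, 788, 846 and 787 in NG-KO, and 846, 833 and 719 in WT. AG-KO libraries 3 and 4 were the lowest of the 14, and the other 12 lay in 1 range. Rps15, a 40S protein of the subunit head, came next with 580.4, 572 and 602 FPKM in Δ3102, 544, 524, 421 and 483 in AG-KO, 534, 547, 549 and 536 in NG-KO, and 551, 542 and 591 in WT. Rpl19, Rps29 and Rpl38 followed with means of 268, 255 and 238 FPKM.

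The order of the genes depended on the length by which the counts were divided. The FPKM of 83 of the 84 genes matched, within 1%, counts divided by a length proportional to the union of all annotated exons. In 49 genes that union is over 2 times as long as the mRNA itself. The union includes retained introns. With CPM (counts scaled to library size) divided by the mRNA length in kilobases, Rplp1 (834 CPM per kilobase) stayed the first and Rps15 (766) the second, and Rpl41, the shortest of all with a coding length of 75 bases, was the third (661). The rank of Rpl31 was 19 by FPKM and 4 per kilobase of mRNA, and that of Rps15a 72 and 23. The lowest 5 by mean FPKM were Rps27l, Rpl32l, Rpl3l, Rpl39l and Rpl10l, all named as like forms of another gene of the group.

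As a group these genes took a nearly fixed share of each library outside AG-KO. The 84 genes held 1.45%, 1.46% and 1.46% of the counts in Δ3102, 1.42%, 1.396%, 1.04% and 1.06% in AG-KO, 1.38%, 1.44%, 1.48% and 1.45% in NG-KO, and 1.52%, 1.51% and 1.49% in WT. The mean share was 1.45% ± 0.00462 in Δ3102 (SD, n = 3), 1.23% ± 0.209 in AG-KO (n = 4), 1.44% ± 0.0435 in NG-KO (n = 4) and 1.51% ± 0.0177 in WT (n = 3). All 3 Δ3102 libraries and all 4 NG-KO libraries were below all 3 WT libraries, by a small margin. By share of summed FPKM both groups overlapped WT, with 2.92%, 2.90% and 2.96% in Δ3102, 3.02%, 2.71%, 1.96% and 2.00% in AG-KO, 2.68%, 2.83%, 2.95% and 2.91% in NG-KO, and 2.92%, 2.99% and 2.92% in WT. AG-KO library 1 was then the highest of the 14 and AG-KO libraries 3 and 4 were still the lowest. In AG-KO, libraries 3 and 4 were the lowest of all, and libraries 1 and 2 lay inside the NG-KO range. Both subunits gave the same order of groups, with 0.888% of counts in 60S genes in Δ3102, 0.746% in AG-KO, 0.884% in NG-KO and 0.920% in WT, and 0.565%, 0.484%, 0.555% and 0.589% in 40S genes in the same groups. In bulk tissue a lower share can come from fewer cells of a type or from less of these mRNAs per cell, and these cannot be told apart. The labels also give no RNA quality or batch for each library, and the cause of the lower share was not tested.

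**Figure D1:**
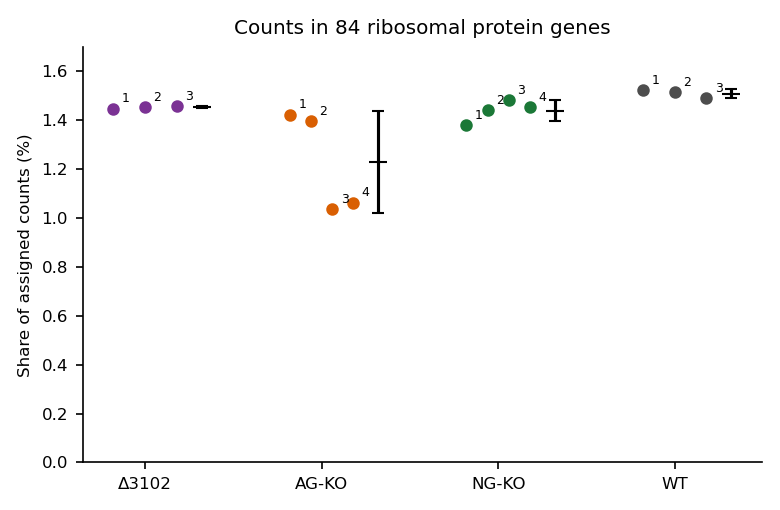
Percent of each library's counts that fell in the 84 ribosomal protein genes, by genotype, with 1 point per library and the group mean ± SD. AG-KO libraries 3 and 4, at 1.04% and 1.06%, sit below the other 12, which span 1.38% to 1.52%.

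The lower level in AG-KO libraries 3 and 4 was spread over most of the genes. For each gene, the deviation of a library was taken as its log2(CPM + 0.5) minus the median of the 14 libraries. The median deviation over the 84 genes was −0.00, 0.03 and −0.00 in Δ3102, −0.01, −0.02, −0.41 and −0.41 in AG-KO, −0.03, 0.01, 0.05 and 0.01 in NG-KO, and 0.10, 0.06 and 0.06 in WT. In each of AG-KO libraries 3 and 4, 80 of the 84 genes were below their own median. For 63 of the 84 genes (75%) these 2 libraries held the lowest 2 FPKM values of the 14, as they did for 12.1% of all tested genes. These libraries were picked out by the values of these same genes, so the count is a description. The tested genes also have longer mRNAs, with a median of 2288 bases against 705 for the 84 genes. The 60S genes had median deviations of −0.44 and −0.44 in libraries 3 and 4, and the 40S genes of −0.38 and −0.40.

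**Figure D2:**
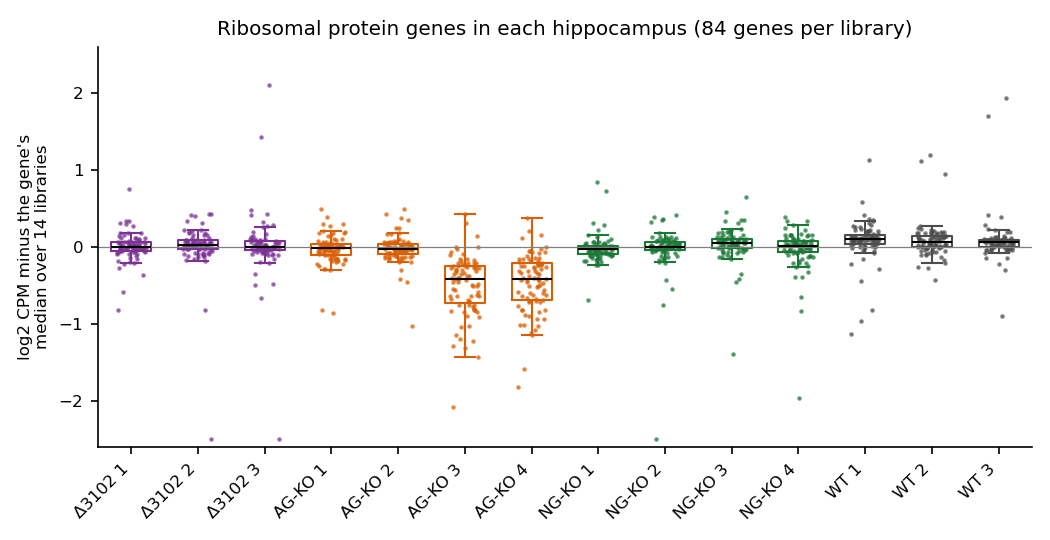
Deviation of each of the 84 genes (1 point per gene) from its own 14-library median, in log2 CPM, by library; bars mark the medians and 3 points beyond ±2.5 are drawn at the edge. The medians of AG-KO libraries 3 and 4 are at −0.41, and those of the other 12 lie between −0.03 and 0.10.

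Within the group, the shortest genes were the lowest in these 2 libraries. Coding lengths were compared over the 79 genes with a coding sequence and a median of at least 100 counts. Median deviations in AG-KO libraries 3 and 4 were −0.80 and −0.74 for the 10 genes with a coding length under 300 bases, −0.44 and −0.46 for 28 genes of 300 to 449, −0.40 and −0.34 for 19 genes of 450 to 599, and −0.25 and −0.22 for 22 genes of 600 or more. Across the 79 genes, Spearman's rho between coding length and deviation was 0.49 in both libraries and between −0.30 and 0.17 in the other 12, given as a description since the genes share libraries. Of the genes with a mean of at least 100 FPKM, the lowest in library 3 was Rpl38 (−1.31), a small 60S protein known in the mouse for its part in the translation of Hox mRNAs. Rpl38 had 265, 269.7 and 246 FPKM in Δ3102, 260.4, 244, 98.5 and 121 in AG-KO, 235, 269, 271 and 277 in NG-KO, and 246, 257 and 265 in WT. Its AG-KO libraries 3 and 4 were below all the others, while libraries 1 and 2 lay within the WT and NG-KO values.

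Rpl39, which lines the exit tunnel of the 60S subunit, showed the same order. It had 34.7, 34.1 and 33.2 FPKM in Δ3102, 36.8, 35.8, 13.5 and 15.2 in AG-KO, 32.9, 35.2, 36.9 and 37.6 in NG-KO, and 37.6, 34.0 and 38.0 in WT. A few genes of the group were at or above their own median in these 2 libraries. Rps2, a protein of the mRNA entry site, deviated by 0.43 and 0.38, Rpl29 by 0.31 and 0.16, Rpl7a by 0.14 and 0.12, and Rps14 by 0.00 and −0.00.

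**Figure D3:**
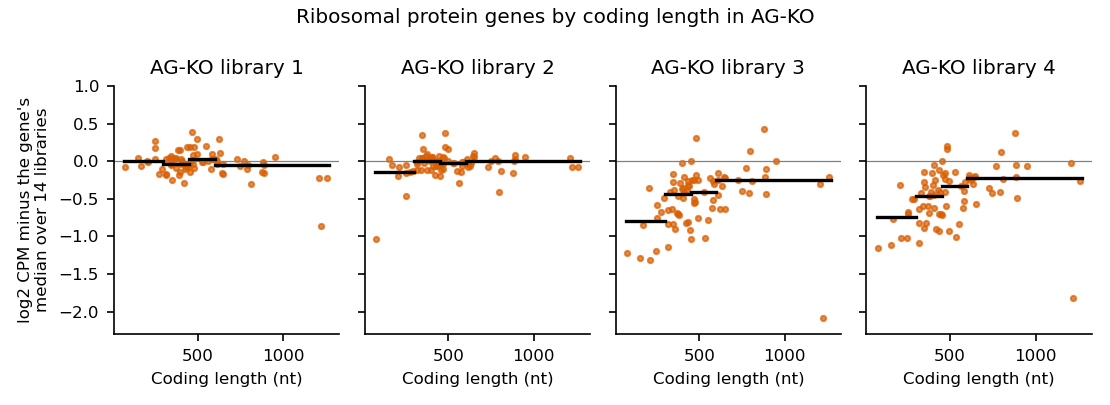
Deviation from the 14-library median, in log2 CPM, against coding length for 79 genes in AG-KO libraries, with black bars at the medians of 4 length classes (under 300, 300 to 449, 450 to 599 and 600 or more bases). In libraries 3 and 4 the class medians run from −0.80 and −0.74 in the shortest class to −0.25 and −0.22 in the longest.

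Other mRNAs under 2000 bases were also below their own medians in these 2 libraries. Among tested genes outside the group, median deviations in AG-KO libraries 3 and 4 were −0.10 and −0.10 for mRNAs under 600 bases, −0.17 and −0.14 for 600 to 999, −0.10 and −0.06 for 1000 to 1999, and 0.04 and 0.04 for 2000 or more. The ribosomal protein genes in the first 3 classes were at −0.64 and −0.63 (32 genes), −0.40 and −0.34 (33 genes) and −0.27 and −0.26 (17 genes). The 2 genes assigned an mRNA length of 2000 bases or more, Rpl5 and Rps20, did not follow this order, with a median of −0.67 and −0.66. Each length is that of a single annotated transcript per gene, and which transcripts were present was not tested. The 78 mitochondrial ribosomal protein genes, whose products build the separate ribosome of the mitochondrion, were at −0.26 and −0.24. The 36 nuclear genes for subunits of respiratory complex I were at −0.48 and −0.41, a median as low as that of the cytosolic ribosomal protein genes. The part of the higher mitochondrial mRNA share in the values of these 2 libraries was not tested.

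No ribosomal protein gene passed an adjusted p of 0.05 in any of the 4 comparisons by edgeR's quasi-likelihood test with Benjamini-Hochberg adjustment over 18059 genes. Over all tested genes, the same rule called 0.0111% in Δ3102 against WT, 0.0221% in AG-KO against WT, 0.072% in NG-KO against WT, and 0.111% in AG-KO against NG-KO. At an unadjusted p under 0.05, 1, 42, 4 and 28 of the 84 genes were lower in the first-named group of these comparisons and none was higher. All tested genes gave 2.27%, 7.74%, 4.83% and 6.84% lower and 2.18%, 6.65%, 4.33% and 7.3% higher. Without AG-KO libraries 3 and 4, 11 of the 84 were lower in AG-KO against WT and none higher (all tested genes: 3.47% lower, 3.95% higher), and 5 were lower and 1 higher in AG-KO against NG-KO (3.24% lower, 4.21% higher). DESeq2 called 0, 5, 1 and 1 of the 84 lower and none higher, where all tested genes gave 0.0886%, 1.18%, 0.421% and 0.908% lower and 0.072%, 1.08%, 0.493% and 1.47% higher. The median log2 fold change over the 84 genes was −0.06 in Δ3102 against WT, −0.30 in AG-KO against WT, −0.05 in NG-KO against WT and −0.21 in AG-KO against NG-KO, where the medians over all tested genes were −0.00, −0.01, −0.02 and −0.01. Log2 fold changes were below 0 for 60, 80, 62 and 78 of the 84 genes. With an offset for mRNA length in the fit, the 4 medians over the 84 genes were −0.0073, −0.091, −0.015 and −0.041.

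**Figure D4:**
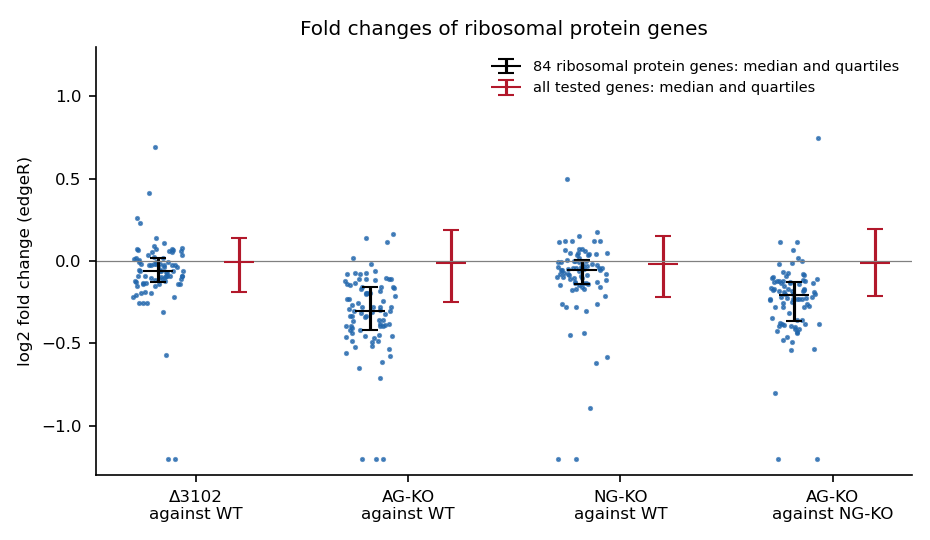
Log2 fold change (edgeR, TMM-scaled counts) of each of the 84 genes in the 4 comparisons, with the median and quartiles of the 84 genes in black and of all tested genes in red; 9 points beyond ±1.2 are drawn at the edge. The medians are −0.06, −0.30, −0.05 and −0.21, and without AG-KO libraries 3 and 4 those of both AG-KO comparisons are −0.07 and −0.03.

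In AG-KO against WT, 31 of the 84 genes were lower with no overlap between the groups, and none was higher in this way (all tested genes: 7.75% lower, 6.1% higher). With AG-KO libraries 1 and 2 alone, 33 were lower and 2 higher with no overlap (all tested genes: 13.2% lower, 12.3% higher). Without AG-KO libraries 3 and 4 the median over the 84 genes was −0.07, with 67 genes below 0, and none of the 84 was called. Without AG-KO library 2, edgeR called 3 of them lower (Rpl4, Rpl7 and Rpl34). The smallest adjusted p by edgeR belonged to Rpl7 (0.0949), Rpl4 (0.113) and Rps24 (0.12). Rpl7 (chr1:16101295-16104662, minus strand), a 60S protein that binds RNA, had 58.9, 65.6, 56.9 and 58.1 FPKM in AG-KO and 76.0, 78.8 and 80.2 in WT. All 4 AG-KO libraries were below WT, and the log2 fold change was −0.36 (SE 0.063), or −0.33 (SE 0.077, adjusted p = 0.362 by edgeR) with libraries 1 and 2 alone. Rpl7 had an adjusted p of 0.000117 by DESeq2.

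Rpl4 (chr9:64173375-64178666, plus strand), a large protein whose loop reaches into the exit tunnel, had 202, 221, 192 and 186 FPKM in AG-KO and 254, 255 and 240.1 in WT. Again every AG-KO library was lower than every WT library, at a log2 fold change of −0.29 (SE 0.057) with all libraries and −0.24 without libraries 3 and 4. Rps24, a 40S protein mutated in some families with Diamond-Blackfan anemia, had 34.6, 34.8, 27.9 and 29.1 FPKM in AG-KO and 45.6, 40.6 and 41.0 in WT, a log2 fold change of −0.40 (SE 0.089), or −0.29 without libraries 3 and 4. Rpl23 (chr11:97777527-97782437, minus strand), which can bind MDM2, had 52.0, 55.0, 33.7 and 31.8 FPKM in AG-KO and 62.7, 70.8 and 72.3 in WT. Its log2 fold change of −0.65 (SE 0.162) became −0.35 with libraries 1 and 2 alone. Besides Rpl7, DESeq2 called Rpl4 (adjusted p = 0.00111), Rps24 (0.0109), Rpl23 (0.0162) and Rpl37 (0.0415) lower.

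Of the genes that did not overlap in AG-KO against WT, Rpl3l, the striated muscle form of Rpl3, had the lowest log2 fold change, −1.83 (SE 0.718), followed by Rpl23, Rps27l (−0.62), Rpl36al (−0.52) and Rpl36a (−0.47). Without libraries 3 and 4 Rpl3l was at −1.08, Rps27l at −0.32, Rpl36al at −0.23 and Rpl36a at −0.17. Rps27l, a copy of Rps27 that p53 induces, had 14.8, 13.7, 8.88 and 8.32 FPKM in AG-KO and 17.99, 16.2 and 19.1 in WT.

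In Δ3102 against WT, 17 of the 84 genes were lower and 3 higher with no overlap between the groups, where all tested genes gave 5.75% lower and 5.83% higher. The differences were small. Rps26, a 40S protein near the mRNA exit and another gene mutated in Diamond-Blackfan anemia, was the only one with an unadjusted p under 0.05. It had 82.9, 80.5 and 85.2 FPKM in Δ3102 and 99.96, 96.6 and 93.1 in WT, a log2 fold change of −0.22 (SE 0.09) with an adjusted p of 0.9997 by edgeR. The other 4 lowest that did not overlap were Rpl34 (−0.25), Rpl5 (−0.19), Rpl22 (−0.19) and Rps24 (−0.19). Rpl32l (0.41), Rps16 (0.09) and Rps14 (0.07) were higher.

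In NG-KO against WT, 15 of the 84 genes were lower with no overlap and none higher, where all tested genes gave 5.93% lower and 5.24% higher. Rplp0 (chr5:115559467-115563727, plus strand), the base of the ribosomal stalk and a common reference gene for PCR, had 96.4, 95.3, 101.3 and 92.6 FPKM in NG-KO and 119, 119 and 111 in WT. The groups did not overlap, at a log2 fold change of −0.26 (SE 0.065) and an adjusted p of 0.263 by edgeR and 0.0471 by DESeq2. Rpl3l (−1.40), Rpl17 (−0.44), Rpl26 (−0.28) and Rpl5 (−0.21) were the others named by size. Counted together with its own pseudogenes, Rpl17 was at −0.16. The unadjusted p was under 0.05 for Rplp0, Rpl7, Rps27a and Rpl34.

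In AG-KO against NG-KO, 7 of the 84 genes were lower and 1 higher with no overlap, where all tested genes gave 3.46% lower and 3.62% higher. Rps29, Rpl9, Rpl37a, Rpl37 and Rpl24 were the lowest of them, at −0.41, −0.39, −0.38, −0.32 and −0.25, and at −0.09, −0.16, −0.19, −0.14 and −0.05 without AG-KO libraries 3 and 4. With AG-KO libraries 1 and 2 alone, 8 of the 84 genes were lower and 2 higher with no overlap (all tested genes: 7.66% lower, 8.49% higher). Rpl29 was higher at 0.75 (SE 0.969), with NG-KO library 2 far below the other 3. DESeq2 called Rpl4 lower (adjusted p = 0.0454). Without AG-KO libraries 3 and 4 the median over the 84 genes was −0.03, with 51 genes below 0, against −0.21 and 78 with them, and it was −0.13 without either library alone. Without AG-KO library 2, edgeR called Rps15a and Rpl4 lower.

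A few of the genes serve widely as reference genes for PCR, namely Rplp0, Rpl13a, Rpl19, Rpl32 and Rps18. In AG-KO against WT their log2 fold changes were −0.14, −0.13, −0.12, −0.30 and −0.25, with adjusted p of 0.342, 0.437, 0.522, 0.279 and 0.253 by edgeR. Without libraries 3 and 4 the log2 fold changes were −0.09, 0.00, 0.03, −0.06 and −0.17. Rpl32 had 173, 182, 118 and 122 FPKM in AG-KO and 189.6, 183 and 185 in WT, with libraries 3 and 4 again the lowest. With a correction for mRNA length, Rpl13a, Rpl19 and Rps18 were at 0.00, 0.08 and 0.03. The smallest within-genotype SDs of log2 CPM were those of Rpl8, Rpl4 and Rpl7, at 0.045, 0.057 and 0.065. This SD does not measure differences between genotypes. Rpl4 and Rpl7 were lower in every AG-KO library than in every WT library. Rpl8, a protein near the catalytic center of the 60S subunit, spanned 154 to 181 FPKM over all 14 libraries. The median SD over the 84 genes was 0.189, against 0.264 over all tested genes, and with AG-KO left out 0.102 against 0.249.

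Some members varied from library to library without regard to genotype. Rpl29 (chr9:106429454-106431568, plus strand), a small protein of the 60S surface, had the largest within-genotype SD, 1.68. Its FPKM was 39.2, 1.249 and 1.22 in Δ3102, 40.02, 44.8, 40.9 and 36.7 in AG-KO, 31.5, 1.21, 31.8 and 33.3 in NG-KO, and 44.03, 30.6 and 36.3 in WT. The 3 low libraries held 87, 77 and 86 counts, where the other 11 held 2035 to 3232, and there was nothing between. Rpl29 pseudogenes made up 2.16% of the summed counts of gene and pseudogenes. Rpl41 (chr10:128548114-128549162, minus strand) had 330.1, 291 and 277 FPKM in Δ3102, 249, 127, 106 and 112 in AG-KO, 297, 154, 299 and 289.7 in NG-KO, and 118, 297 and 142 in WT. NG-KO and WT each held values as low as 154 and 118 FPKM beside values as high as 299 and 297.

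For other genes the spread narrowed when the pseudogene copies were counted in. Ribosomal protein genes have many processed pseudogenes with nearly the same sequence, and how the counting assigned reads that match both is not given in the sources used here. In the table, 61 of the 84 genes had 300 such copies by name. The sum of gene and copies varied less than the gene alone within Δ3102, NG-KO and WT for 42 of the 61, and for 12 of the 14 genes with at least 20% of the sum in copies. Rps27, a zinc-finger protein of the 40S subunit, had 121, 161 and 165 CPM in Δ3102, 135, 182, 109 and 143 in NG-KO, and 101.4, 162 and 141 in WT. With its retrogene Rps27rt and its other copy the sums were 179.8, 196 and 184 in Δ3102, 180.1, 208, 178 and 176 in NG-KO, and 183, 189 and 182 in WT. The SD of log2 CPM within these 3 groups was 0.084 for the sum, against 0.303 for the gene alone. In AG-KO the sums were 179.8, 161, 99.0 and 104, so libraries 3 and 4 remained the lowest. The same SD was 0.073 against 0.245 for Rps12, 0.205 against 0.491 for Rpl7a and 0.078 against 0.2 for Rpl17, of whose sum 73.5% lay in copies. For Rpl21 and Rps13, also with at least 20% of the sum in copies, the sum varied slightly more, at 0.191 against 0.184 and 0.111 against 0.104. A sum of rows can vary less than 1 of them whether or not reads are shared, and the sharing of reads was not tested. The values of these single genes remain uncertain, since how such reads were assigned is not given.

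**Figure D5:**
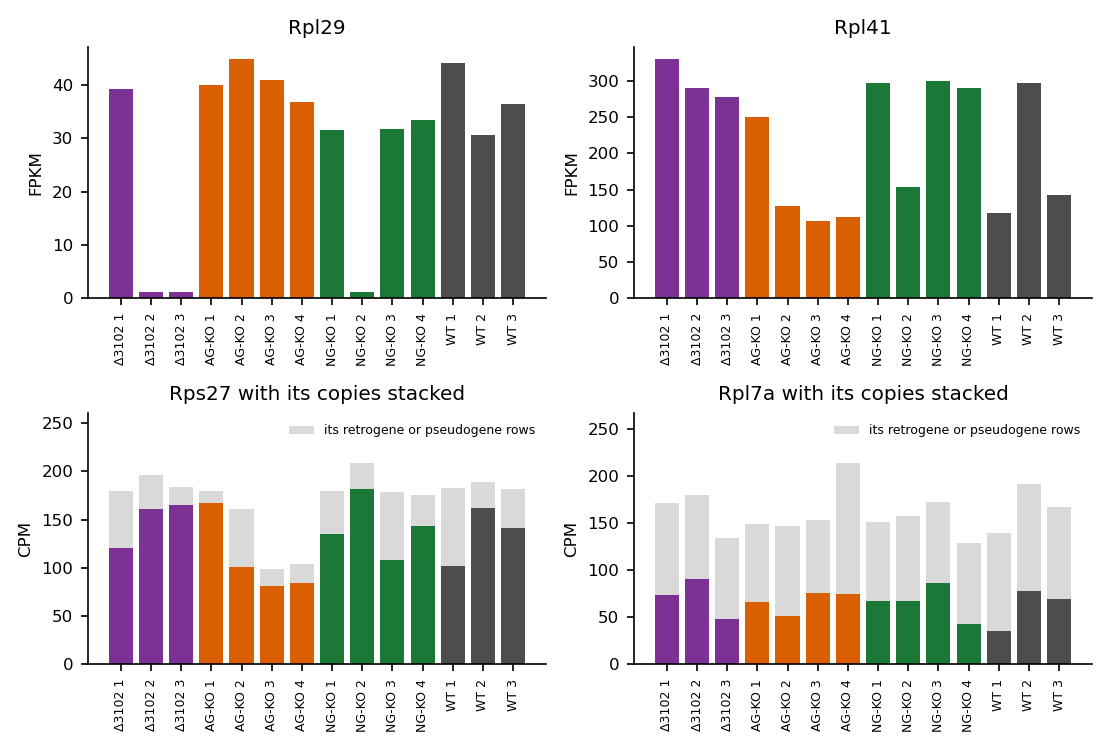
FPKM of Rpl29 and Rpl41 and TMM-scaled CPM of Rps27 and Rpl7a in each of the 14 libraries, with pseudogene and retrogene copies stacked in grey for Rps27 and Rpl7a. Rpl29 is near 1.2 FPKM in 3 libraries and between 30.6 and 44.8 in the other 11, and the Rps27 sum lies between 176 and 208 outside AG-KO.

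Copies of ribosomal proteins known from other tissues were detected in some libraries. Rpl10l and Rpl39l replace the X-linked Rpl10 and Rpl39 in male germ cells, where the X chromosome is silenced. Rpl10l had 0, 0 and 49 counts in Δ3102, 0, 8, 0 and 0 in AG-KO, 24, 0, 19 and 6 in NG-KO, and 0, 49 and 94 in WT. Rpl39l had 0, 0 and 162 counts in Δ3102, 0, 37, 0 and 0 in AG-KO, 61, 16, 36 and 24 in NG-KO, and 0, 77 and 138 in WT. The libraries with counts of Rpl10l were the same 7 in which the sperm protamine gene Prm2 was at 10.7 to 41.3 FPKM, and in the other 7 Prm2 was at most 0.703 FPKM. Summed over the 5 male germ cell markers searched (Prm1, Prm2, Tnp1, Tnp2 and Odf1), FPKM ran from 0.846 to 179 in Δ3102, 6.97 to 47.3 in AG-KO, 0.14 to 102 in NG-KO and 1.87 to 177 in WT. In AG-KO libraries 1, 3 and 4, which had no count of Rpl10l, nearly all of this sum was the other protamine gene, Prm1, at 21.4, 6.90 and 21.8 FPKM. All mice are labelled female, and the part of such RNA in these 2 genes was not tested.

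Rpl3l (chr17:24727820-24736143, plus strand) had 3.22, 2.26 and 2.62 FPKM in Δ3102, 0.879, 1.69, 0.204 and 0.297 in AG-KO, 1.45, 1.89, 0.507 and 0.258 in NG-KO, and 4.22, 1.97 and 2.02 in WT. Its lowest values, in AG-KO libraries 3 and 4 and NG-KO library 4, fell in the libraries with the lowest levels of Acta1, the skeletal muscle actin, at 3.86, 3.43 and 4.39 FPKM. The match did not hold throughout: WT library 3, with the next lowest Acta1 (7.71 FPKM), had Rpl3l at the level of WT library 2, where Acta1 was at 114 FPKM. The 5 skeletal muscle markers summed to 377 to 530 FPKM in Δ3102, 4.04 to 197 in AG-KO, 7.27 to 168 in NG-KO and 17.5 to 400.2 in WT. The part of muscle RNA in the Rpl3l values was not tested. The ubiquitous Rpl3 averaged 142 FPKM over all libraries.

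Genes that work with these proteins were compared in the same way, as lists. The 8 listed genes with ribosomal protein names outside the pattern, among them Fau, Rack1 and Rps3a1, had median log2 fold changes of −0.10 in Δ3102 against WT, −0.44 in AG-KO against WT, −0.09 in NG-KO against WT and −0.39 in AG-KO against NG-KO. This list also holds Rps27rt, the retrogene of Rps27, and the less abundant Rps3a2 and Rps3a3, with medians of 312.5 and 230 counts. Without AG-KO libraries 3 and 4 both AG-KO medians of this list were −0.23 and −0.14. Of these, Rpl22l1, a copy of Rpl22, had 18.9, 21.1, 5.95 and 7.24 FPKM in AG-KO and 18.8, 19.5 and 19.9 in WT, with libraries 3 and 4 far below the rest. The 20 listed translation partners whose mRNAs carry the same tract, such as elongation factors Eef1a1 and Eef2, were at −0.05, −0.14, −0.07 and −0.09 in the same comparisons, and at −0.08 and −0.06 in the AG-KO comparisons without these libraries. The 34 ribosome biogenesis factors, which build the ribosome in the nucleolus, were at −0.00, −0.06, 0.03 and −0.10, with −0.01 and −0.07 without these libraries. The 15 genes of the mTORC1 pathway and its regulation of these mRNAs were at 0.00, −0.08, 0.01 and −0.02, and without these libraries they were lower, at −0.24 in AG-KO against WT and −0.10 in AG-KO against NG-KO. The 11 tested targets of p53, which free ribosomal proteins can activate through MDM2, were at −0.03, 0.05, −0.09 and 0.13, and at −0.02 and 0.15 in the AG-KO comparisons without these libraries. No gene of these lists passed an adjusted p of 0.05 by edgeR.

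The complex I and mitochondrial ribosomal protein genes also had medians below 0 in the AG-KO comparisons. The complex I genes, with a median mRNA length of 760.5 bases, were at 0.02, −0.24, −0.00 and −0.23 in the same order, and at −0.02 in AG-KO against WT and −0.04 in AG-KO against NG-KO without AG-KO libraries 3 and 4. The mitochondrial ribosomal protein genes, with a median of 1251.5 bases, were at 0.01, −0.14, 0.03 and −0.15, and at −0.01 and −0.06 without these libraries. The 18 ribosomal protein genes mutated in Diamond-Blackfan anemia are part of the group and had medians of −0.02, −0.32, −0.05 and −0.23, and of −0.08 and −0.04 in the AG-KO comparisons without libraries 3 and 4. Those lower at an unadjusted p under 0.05 numbered 1, 10, 0 and 7, where all tested genes gave 2.27%, 7.74%, 4.83% and 6.84%. Without libraries 3 and 4 they numbered 1 in AG-KO against WT (all tested genes: 3.47%) and 0 in AG-KO against NG-KO (3.24%).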

How the data were processed

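Poly(A) RNA of 14 hippocampal samples was sequenced as read pairs with molecular identifiers. The authors deposited 1 table with raw counts and FPKM for each gene, and both units were used as deposited. The submitters' processing notes name cutadapt 1.9, HISAT2 2.0.4, UMI-tools, StringTie 1.3.4d, DESeq2, edgeR and the build GRCm38. The program that made the counts is not given in the sources used here. For 83 of the 84 ribosomal protein genes the deposited FPKM values equal, within 1%, counts over a length proportional to the union of annotated exons. Genes with no signal hold 0.0001.

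Counts were fitted for all 14 libraries with 1 mean per genotype in edgeR 4.0.16 (R 4.3.3, TMM factors, quasi-likelihood test, Benjamini-Hochberg adjustment), after a filter of FPKM of at least 0.5 in at least 3 libraries. No group in these comparisons has more than 4 libraries, which limits the precision. DESeq2 1.42.0, limma 3.58.1 on log2(FPKM + 0.1), other scalings and filters, an offset for mRNA length, the replicate number as a block and each library left out were alternatives. Leaving out both AG-KO libraries 3 and 4, and adding each gene's pseudogene copies, were alternatives chosen after seeing the data. The scripts were tested on simulated data. Tables were handled in pandas 2.3.3, NumPy 2.4.6 and SciPy 1.17.1, and plots were drawn with matplotlib 3.10.9 (Python 3.11.15).

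mRNA lengths came from a single transcript per gene in GENCODE vM21, whose coordinates matched 94.7% of the genes in the table. Promoters came from RefSeq. Genes were named in the text if they passed an adjusted p of 0.05, had the 5 highest or lowest mean FPKM, had up to 5 of the largest fold changes without overlap in each direction of a comparison, had the 3 largest or smallest within-genotype SDs, or were paralogs or PCR reference genes. Other genes were named after their values were seen. The genes and lists were chosen with earlier results of these data known. A gene of these lists is not reported here, and the lists' values leave it out. Counts of overlap between groups used TMM-scaled CPM. Numbered replicates were checked for pairing, which the closing section gives.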

Additional observations from a re-analysis of the deposited data

Results flagged for a closer look

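Of 84 sets of 4 libraries examined, the highest or lowest value stood apart from the other 3 in 5, each in another gene. Rpl29 and Rpl39l, both among the 5, had been named for a large spread within genotypes. A rate expected by chance therefore does not apply, and the number was not compared with chance. Rpl29 was lowest in NG-KO library 2, at 1.21 FPKM against 31.5 to 33.3 in the other NG-KO libraries. Rplp1 was highest in NG-KO library 3, at 846 FPKM against 787 to 796. Rps4l was highest in AG-KO library 2, at 38.6 FPKM against 23.7 to 26.0. The male germ line genes Rpl10l and Rpl39l were highest in the same AG-KO library, at 0.134 and 0.785 FPKM, where the other 3 were listed at 0.0001, the value for no signal. Where the other 3 hold the same value any signal stands apart, so little can be read from these genes.

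Rps14, a 40S protein of the platform of the small subunit, lay on opposite sides of WT in 2 genotypes. Its FPKM was 100.97, 96.4 and 95.8 in Δ3102 (mean 97.7), each above every WT library (92.7 to 93.8), and 86.0, 81.3, 89.7 and 89.2 in AG-KO (mean 86.5), each below every WT library. The difference between the 2 genotypes was not tested. On TMM-scaled counts AG-KO and WT overlapped.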

How the results depend on the processing

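The median log2 fold change over the 84 genes was below 0 in all 30 settings of each of the 4 comparisons. It moved with an offset for mRNA length, to −0.0073 in Δ3102 against WT, −0.091 in AG-KO against WT, −0.015 in NG-KO against WT and −0.041 in AG-KO against NG-KO, and with the replicate block and this offset together, to −0.0085, −0.080, −0.0053 and −0.041. Without both AG-KO libraries 3 and 4 it was −0.068 in AG-KO against WT and −0.027 in AG-KO against NG-KO. With 1 library left out it ranged from −0.079 to −0.040 in Δ3102 (the −0.040 without WT library 1), −0.38 to −0.21 in AG-KO, −0.074 to −0.039 in NG-KO, and −0.29 to −0.13 in AG-KO against NG-KO (the −0.13 without AG-KO library 3 or 4). By share of summed FPKM, the log2 ratio of Δ3102 to WT was −0.0087. DESeq2 called 5, 1 and 1 genes lower in AG-KO, NG-KO and AG-KO against NG-KO, Rpl23 at −0.64 and Rplp0 at −0.26 among them. Without AG-KO library 2, edgeR called 3 genes lower against WT (Rpl4, Rpl7 and Rpl34, of 82 genes in all) and 2 against NG-KO (Rps15a and Rpl4, of 297), so that leaving out 1 library gave 0 to 3 and 0 to 2 calls; the cause was not tested. Every other setting called none of the 84. In AG-KO against WT, Rpl13a was at 0.0010 with the length offset, 0.0098 with block and offset, and 0.0049 without libraries 3 and 4, Rpl19 at 0.079, 0.083 and 0.031, and Rps18 at 0.031 with the offset. Genes called in all by edgeR, 2, 4, 13 and 20, were 1, 1, 5 and 9 with the replicate block and 29, 408, 165 and 430 by DESeq2. With the replicate block the medians were −0.06, −0.27, −0.02 and −0.22. The labels do not say that a replicate number marks a shared litter or batch, and the mean correlation of deviations was −0.00774 between libraries of the same number and 0.00251 between others, with 3 of 14 libraries closest to one of their own number.

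Groups of 3 or 4 libraries and 2 AG-KO libraries that carry most of the shift limit these results. How reads that match both a gene and its pseudogenes were assigned is not given, which is a further limit. Genes with few counts, such as Rpl10l and Rpl39l, are known only by their presence.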
